A study of Homo sapiens with 4 samples.

Results

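The 10 genes described here code for proteins that detect, edit or signal from double-stranded RNA. They were taken by symbol (IFIH1, DDX58, DHX58, TLR3, EIF2AK2, ZBP1, ADAR, MAVS, TRIM25 and TBK1), and all 10 were found among the 59533 symbols that occur once in the table, each with a value in every library. RNA was sequenced in 4 libraries, 1 per group, from cells of the breast cancer line HCC1937 and of THP-1, which derives from a monocytic leukaemia. Per the labels, both lines lack p53 and both were infected with p53-R282W, a mutant of this tumour suppressor, so untreated and treated cells alike carry it; whether the infected cells were a pool or a clone is not said, and no library without the mutant was analysed here. Decitabine (DAC), a nucleoside analogue that blocks DNA methyltransferases, was given to HCC1937 at 0.3 µM for 5 days and to THP-1 at 5 µM for 2 days, and the other library of each line had none. Dose and time therefore differ between the lines, and their responses are given side by side.

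Double-stranded RNA in the cytosol is read as a sign of virus infection, and cells produce it themselves when silent repeats of the genome are transcribed, as is known to happen after DNA demethylation. MDA5 (gene IFIH1) and RIG-I (DDX58) bind it and signal through MAVS on mitochondria to the kinase TBK1, which activates the factors that switch on interferon genes. LGP2 (DHX58) is their relative without the signalling domains, TRIM25 is a ubiquitin ligase linked to RIG-I activation, TLR3 senses double-stranded RNA in endosomes, PKR (EIF2AK2) halts translation, ZBP1 binds left-handed nucleic acid and can start cell death, and ADAR edits adenosine to inosine and so makes own RNA less visible to the sensors. Most of these genes are themselves induced by interferon, which acts through the promoter element bound by interferon-activated factors.

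Printed below are start regions that hold the core of this element or a closer-spaced form of it. The values that follow can be set beside them. RefSeq promoter windows on GRCh38.p14 (250 bases before to 50 after a start) were found for 8 of the 10, and DHX58 and ZBP1 had none. Both strands were searched for a pair of GAAA repeats with any 2 bases between them, the core of the interferon-stimulated response element, and for the same pair with any 1 base between them, spellings that were chosen after the sequences had been seen. Of 35116 windows in the table, 3.57% held the wider pair, 3.12% the closer pair and 6.40% either. Of the 8 members, 3 held the wider and 2 the closer pair. The 5 windows are given 5′ to 3′ along the gene, from 250 bases before the start to 10 after it, with matches on either strand in capitals.
IFIH1: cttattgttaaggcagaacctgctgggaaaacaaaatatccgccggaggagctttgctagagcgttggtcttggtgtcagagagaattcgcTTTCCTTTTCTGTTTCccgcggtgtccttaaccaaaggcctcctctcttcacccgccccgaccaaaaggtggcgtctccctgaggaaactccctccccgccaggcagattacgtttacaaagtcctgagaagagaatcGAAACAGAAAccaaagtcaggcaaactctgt
DDX58: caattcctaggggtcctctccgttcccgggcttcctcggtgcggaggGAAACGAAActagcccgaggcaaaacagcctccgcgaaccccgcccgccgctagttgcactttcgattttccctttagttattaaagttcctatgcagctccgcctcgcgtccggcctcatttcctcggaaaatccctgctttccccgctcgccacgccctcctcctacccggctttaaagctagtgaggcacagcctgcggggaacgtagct
EIF2AK2: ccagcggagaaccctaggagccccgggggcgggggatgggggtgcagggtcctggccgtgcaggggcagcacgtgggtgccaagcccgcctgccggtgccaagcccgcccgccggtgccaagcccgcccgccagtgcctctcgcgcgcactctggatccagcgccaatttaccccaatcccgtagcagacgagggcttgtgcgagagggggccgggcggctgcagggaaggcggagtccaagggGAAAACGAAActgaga
TLR3: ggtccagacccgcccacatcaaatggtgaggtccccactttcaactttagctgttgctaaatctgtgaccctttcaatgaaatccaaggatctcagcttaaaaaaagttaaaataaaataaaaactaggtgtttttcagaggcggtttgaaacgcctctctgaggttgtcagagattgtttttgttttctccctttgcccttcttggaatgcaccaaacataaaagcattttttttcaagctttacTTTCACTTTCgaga
TRIM25: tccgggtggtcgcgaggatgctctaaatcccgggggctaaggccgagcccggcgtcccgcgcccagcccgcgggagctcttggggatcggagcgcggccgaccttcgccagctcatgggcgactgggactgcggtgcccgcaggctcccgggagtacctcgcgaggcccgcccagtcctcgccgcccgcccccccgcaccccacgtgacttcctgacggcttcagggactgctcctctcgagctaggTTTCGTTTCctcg

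These windows are chr2:162318675-162318934 on the minus strand (IFIH1), chr9:32526187-32526446 on the minus strand (DDX58, listed as RIGI by RefSeq), chr2:37156971-37157230 on the minus strand (EIF2AK2), chr4:186068906-186069165 on the plus strand (TLR3) and chr17:56914040-56914299 on the minus strand (TRIM25). IFIH1 has 3 matches to the wider pair, 1 of them 21 to 12 bases before the start and an overlapping pair between 159 and 144 bases before it. In EIF2AK2 and TLR3 a single match spans the start, and in TRIM25 a match to the closer pair does so. The match of DDX58 lies 203 to 195 bases before the start. The 3 windows of ADAR, which belong to different starts, and those of MAVS and TBK1 held neither spelling. A match is a description of letters, and none of the data here measure binding. In CpG sites, the dinucleotide that DNA methyltransferases modify, TLR3 had 5 in its window, IFIH1 12, ADAR 13 or 14, DDX58 27, EIF2AK2 30, MAVS 34, TBK1 35 and TRIM25 37, against a median of 14 over all windows. Methylation was not measured in this series.

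The libraries held from 18.7 to 19.7 M counted reads, a depth read from the spacing of the values of short genes. Values are FPKM, reads per kilobase of gene length scaled to sequencing depth. Of 20 epithelial and basal markers, 20 reached 1 FPKM in each HCC1937 library and 5 or 6 in those of THP-1, and of 20 myeloid markers, 1 and 4 did in untreated and DAC-treated HCC1937 and 19 and 20 in THP-1. Summed levels of markers of other cell types were higher in the DAC library of HCC1937. They went from 2.98 to 22.8 FPKM for the myeloid list (LYZ and CTSG at 0 in both libraries), from 0.62 to 9.05 FPKM for 12 lymphoid markers (CD3G, MS4A1 and CD2 at 0 in both), from 0.56 to 1.05 FPKM for 8 dendritic markers (LILRA4, TCF4, CLEC9A and CD1C at 0 in both) and from 6.06 to 17.6 FPKM for 11 fibroblast and endothelial markers (DCN at 0 in both). Their part in the values below was not tested. In THP-1 the sums went from 37.98 to 45.58 FPKM for the lymphoid, 23.2 to 24.8 FPKM for the dendritic and 22.3 to 24.9 FPKM for the fibroblast and endothelial markers, and the epithelial list went from 26.7 to 35.9 FPKM. In bulk RNA, more cells with a transcript and more transcript per cell cannot be told apart.

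None of the 8 members with enough signal was called 2-fold different between the DAC and untreated library of its line. A gene was kept in a line when at least 1 of the pair reached 1 FPKM, and a difference was called at 2-fold on log2(FPKM + 1), a scale that understates the change of low genes. TLR3 and ZBP1 were not kept in either line and so could not be called, whatever their ratio. In HCC1937, 0 of these 8 were called, where 11.8% of 14058 kept genes were (10.3% higher and 1.44% lower). In THP-1, 0 of 8 were called, where 1.51% of 12075 kept genes were (1.14% higher and 0.364% lower). Each group is a single library, so a pair has no replicate check and no p-value, and the intervals below (exact Clopper-Pearson, 95%, on estimated reads) cover counting error only.

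Smaller shifts were uneven among the members, with IFIH1, EIF2AK2, ADAR and DDX58 higher with DAC in both lines. As deposited, MAVS and TRIM25 were nearly level, and TBK1 was higher in HCC1937 and nearly level in THP-1 (log2 differences 0.48 and 0.06). The median log2 difference of the 8 kept members was 0.43 in HCC1937, where all kept genes had 0.19, and 0.26 in THP-1, where all kept genes had 0.07. Over all 10 members the medians were 0.37 and 0.16. In HCC1937, 6 of the 8 stood above their untreated value by any amount, as did 66.2% of kept genes, and in THP-1 7 of 8, as did 65% of kept genes. The counting interval of the ratio lay above 1 for 5 of 8 members in HCC1937, where it did for 51.7% of kept genes with a read estimate, and below 1 for DHX58, where it did for 21.5%. In THP-1 it lay above 1 for 4 of 8 members (30.4% of such genes) and below 1 for 0 of 8 (13.2%). Once the pairs were rescaled, first by the median of ratios and then by the upper quartile, the intervals of DHX58, MAVS and TRIM25 lay below 1 in HCC1937 (3 of 8, against 30.7% and 42.3% of such genes) and that of TRIM25 in THP-1 (1 of 8, against 21.8% and 19.3%). Above 1 were then 5 and 4 of 8 in HCC1937 (40.7% and 29.9%) and 3 of 8 in THP-1 under each (18.4% and 21.2%), DDX58 being the member lost. Rescaling the HCC1937 pair moved the median of all kept genes from 0.19 to 0.06 (median of ratios) and to -0.08 (upper quartile), so HCC1937 differences are to be read against that shift. As deposited, 5 of 8 members, TBK1 among them, were higher in both lines, as were 45.9% of the 9798 genes kept in both lines. IFIH1, DDX58, EIF2AK2 and ADAR stayed higher in both lines under both scalings as well, which makes 4 of 8, while 23.2% of these genes did so. The members were chosen with earlier results of these data known, so their contrasts with all genes are descriptions only.

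**Figure D1:**
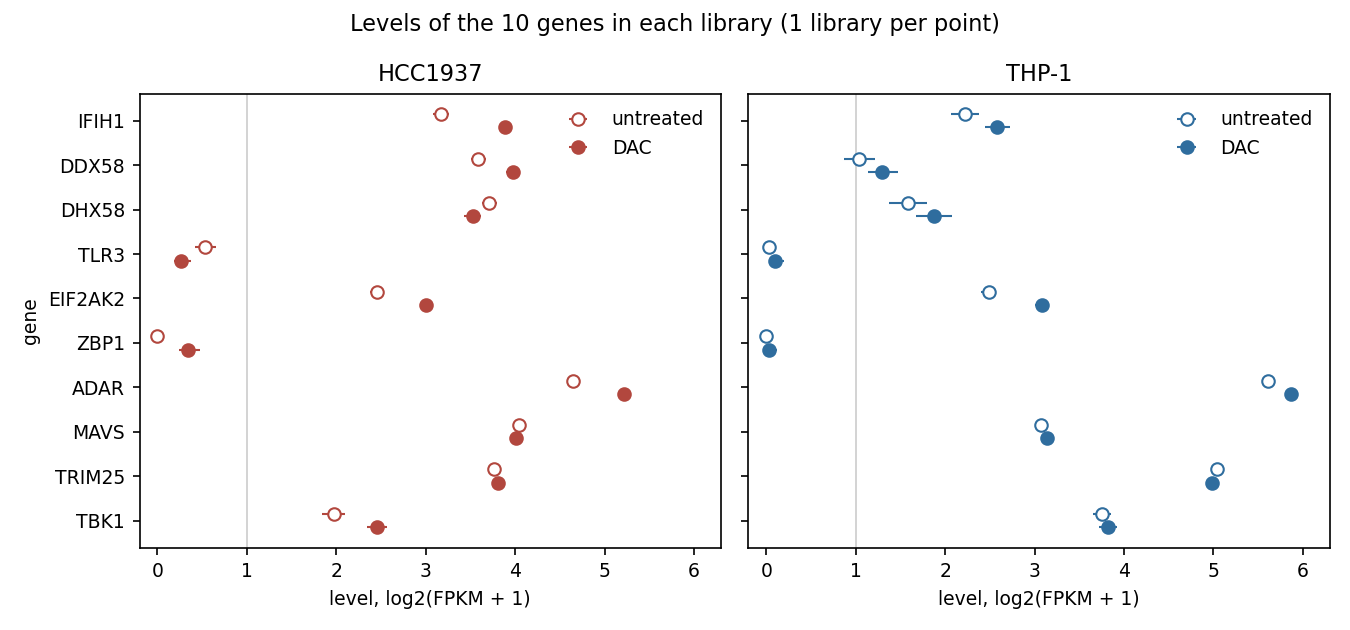
Level of each of the 10 genes, as log2(FPKM + 1) on the horizontal axis, in HCC1937 (left) and THP-1 (right), with open points for the untreated and filled points for the DAC library, 1 library per point, and bars for the 95% counting interval. The grey line marks 1 FPKM: TLR3 and ZBP1 lie below it in all 4 libraries, and ADAR is the highest member in each.

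Among the cytosolic sensors, IFIH1 (ENSG00000115267.6, chromosome 2, 162267079 to 162318703), which codes for MDA5, had the largest upward difference in HCC1937. It stood at 8.0 FPKM untreated and 13.8 FPKM with DAC there, a ratio of 1.73 with a counting interval of 1.59 to 1.90 and a log2 difference of 0.72. In THP-1 it stood at 3.68 FPKM untreated and 5.00 FPKM with DAC, a ratio of 1.36 (1.13 to 1.63) and a log2 difference of 0.36. Both intervals lie above 1 and below 2. Of kept genes, 83.6% in HCC1937 and 91.2% in THP-1 had a lower log2 difference than IFIH1. At a looser mark of 1.5-fold on log2(FPKM + 1), 1 of 8 members, IFIH1, was past it in HCC1937, where 21.9% of kept genes were past it upwards, 5.91% downwards and 27.8% in either direction. EIF2AK2 and TBK1 have plain ratios over 1.5 there, and with a pseudocount of 0.1 their log2 differences of 0.64 and 0.60 pass this mark too.

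DDX58 (ENSG00000107201.9, chromosome 9, 32455705 to 32526324), which codes for RIG-I, moved less than IFIH1 in HCC1937. IFIH1 per DDX58 went from 0.725 to 0.940 there, 1.30 times (1.15 to 1.47). In THP-1 this quotient was 3.50 untreated and 3.42 with DAC, 0.977 times (0.689 to 1.39). DDX58 stood at 11.0 FPKM untreated and 14.7 FPKM with DAC in HCC1937, a ratio of 1.33 (1.23 to 1.46). THP-1 had 1.05 FPKM untreated and 1.46 FPKM with DAC, a ratio of 1.39 (1.01 to 1.89) on about 73 and 102 reads. The low read number leaves the THP-1 ratio wide, and its interval only just clears 1 as deposited and includes it under both scalings.

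DHX58 (ENSG00000108771.12, chromosome 17, 42101404 to 42112733), which codes for LGP2, was lower with DAC in HCC1937 although its relatives were higher. It stood at 12.1 FPKM untreated and 10.5 FPKM with DAC there, a ratio of 0.867 (0.789 to 0.960) and a log2 difference of -0.19, and only 20.03% of kept genes had a lower value. In THP-1 it stood at 1.99 FPKM untreated and 2.67 FPKM with DAC, a ratio of 1.34 on about 83 and 112 reads. Its interval (0.996 to 1.80) only just includes 1, and these read numbers are approximate. The balance of the 3 relatives within a library does not depend on how libraries are scaled. DHX58 per IFIH1 went from 1.51 to 0.759 in HCC1937, which is 0.501 times its untreated value (counting interval 0.440 to 0.571, normal approximation). In THP-1 the same quotient was 0.541 untreated and 0.534 with DAC, 0.987 times (0.706 to 1.38). DHX58 per DDX58 went from 1.10 to 0.713 in HCC1937, 0.650 times (0.571 to 0.739), and from 1.90 to 1.83 in THP-1, 0.965 times (0.638 to 1.46). By FPKM, DHX58 was the highest of the 3 in untreated HCC1937, with a counting interval that overlapped that of DDX58, and the lowest after DAC. In THP-1 IFIH1 led and DDX58 was lowest in both libraries.

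TLR3 (ENSG00000164342.12, chromosome 4, 186069152 to 186088069), the endosomal receptor, was low in both lines. In HCC1937 it stood at 0.45 FPKM untreated and 0.20 FPKM with DAC, on about 57 and 26 reads, a ratio of 0.444 (0.275 to 0.737). THP-1 had 0.02 FPKM untreated and 0.07 FPKM with DAC, on about 2 and 7 reads, and its interval of 0.659 to 34.2 gives no direction. All 4 values lie under the 1 FPKM at which a gene was kept.

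EIF2AK2 (ENSG00000055332.17, chromosome 2, 37099210 to 37157065) codes for PKR, the kinase that phosphorylates the initiation factor eIF2 alpha. In HCC1937 it stood at 4.48 FPKM untreated and 7.02 FPKM with DAC, a ratio of 1.57 (1.45 to 1.71) and a log2 difference of 0.55. THP-1 had 4.6 FPKM untreated and 7.46 FPKM with DAC, a ratio of 1.62 (1.48 to 1.78) and a log2 difference of 0.60. The counting intervals of the 2 ratios overlap over most of their length as deposited, while under upper-quartile scaling they were 1.17 to 1.38 in HCC1937 and 1.42 to 1.71 in THP-1, with no overlap. In THP-1, 96.8% of kept genes had a lower log2 difference, and EIF2AK2 was the 1 member of 8 past 1.5-fold there, where 3.3% of kept genes were past it upwards, 1% downwards and 4.3% in either direction.

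ZBP1 (ENSG00000124256.14, chromosome 20, 57603846 to 57620576), a sensor of left-handed RNA and DNA, was listed at 0 in both untreated libraries. With DAC it stood at 0.27 FPKM in HCC1937, on about 28 reads, and at 0.02 FPKM in THP-1, on about 1 read. The HCC1937 value is well above what 0 reads allow, and the THP-1 value is not. ZBP1 is known from blood and immune cells. Summed levels of the myeloid, lymphoid and dendritic markers, and of the fibroblast and endothelial ones, were also higher in that HCC1937 library, as given above. Whether this bears on the ZBP1 value was not tested. RIPK3, the kinase that ZBP1 recruits, stood at 0 FPKM untreated and 0.45 FPKM with DAC in HCC1937, and at 2.84 and 4.85 FPKM in THP-1.

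ADAR (ENSG00000160710.16, chromosome 1, 154582057 to 154628013), the editing enzyme, was the most abundant member per length in every library. It stood at 24.0 FPKM untreated and 36.1 FPKM with DAC in HCC1937, a ratio of 1.5 (1.45 to 1.56). In THP-1 it stood at 47.9 FPKM untreated and 57.3 FPKM with DAC, a ratio of 1.196 (1.15 to 1.24). At 4415 to 6646 estimated reads per library these intervals are narrow, and the pair does not overlap as deposited. Under upper-quartile scaling they do overlap, at 1.17 to 1.26 in HCC1937 and 1.11 to 1.19 in THP-1. The gene is read from several starts, giving a long form induced by interferon and a short constitutive one, which gene-level values do not separate. Within HCC1937, IFIH1 per ADAR went from 0.333 to 0.384, 1.15 times (1.05 to 1.27), and EIF2AK2 per ADAR from 0.186 to 0.195, 1.04 times (0.954 to 1.14). In THP-1, EIF2AK2 per ADAR went from 0.096 to 0.130, 1.36 times (1.23 to 1.496), and IFIH1 per ADAR from 0.077 to 0.087, 1.14 times (0.947 to 1.36). ADAR thus kept pace with EIF2AK2 in HCC1937 within counting error, and less so in THP-1.

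**Figure D2:**
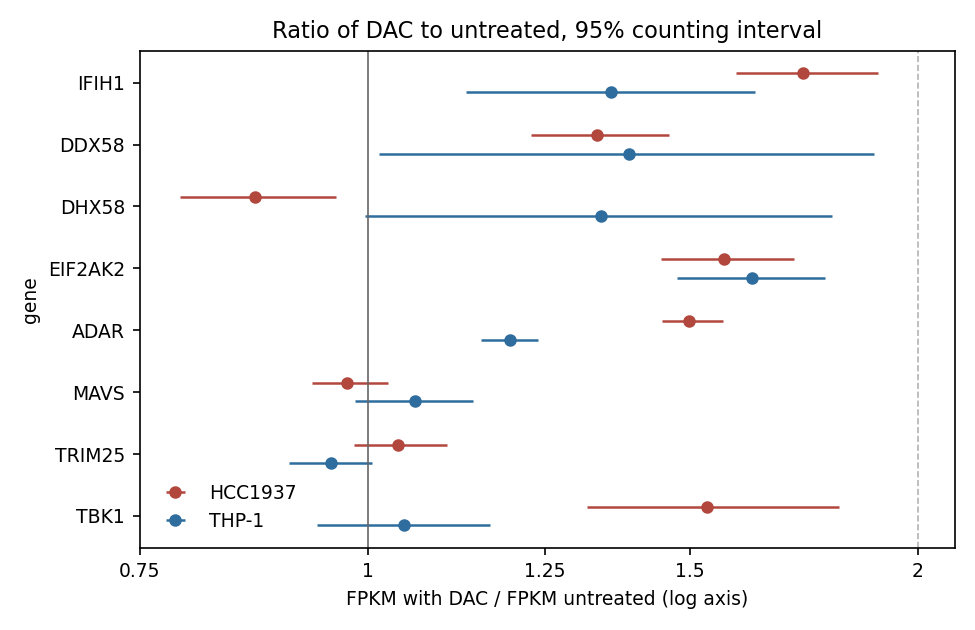
FPKM with DAC divided by FPKM untreated (log axis) for the 8 genes kept in both lines, with the 95% counting interval, HCC1937 in red and THP-1 in blue. The solid line marks 1 and the dashed line 2: as deposited, no interval reaches 2, and DHX58 of HCC1937 has the only one wholly below 1.

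As deposited, MAVS, TRIM25 and TBK1 were nearly level, apart from TBK1 in HCC1937. That flatness depends on scaling. Under upper-quartile scaling in HCC1937, the log2 differences were -0.33 for MAVS and -0.24 for TRIM25. They were then 0.44 for IFIH1, 0.29 for EIF2AK2, 0.26 for ADAR, 0.24 for TBK1 and 0.10 for DDX58. MAVS (ENSG00000088888.17, chromosome 20, 3846799 to 3876123), the mitochondrial adaptor, stood at 15.5 FPKM untreated and 15.1 FPKM with DAC in HCC1937, a ratio of 0.974 (0.932 to 1.03). In THP-1 it stood at 7.38 FPKM untreated and 7.83 FPKM with DAC, a ratio of 1.06 (0.984 to 1.14). Both intervals include 1 as deposited, but the HCC1937 log2 difference of -0.04 became -0.17 and -0.33 when rescaled, with intervals of 0.842 to 0.926 and 0.751 to 0.826. IFIH1 per MAVS went from 0.516 to 0.917 in HCC1937, 1.78 times (1.61 to 1.96), and from 0.499 to 0.639 in THP-1, 1.28 times (1.06 to 1.55). The sensor thus gained on its adaptor in both pairs, a comparison within libraries.

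TRIM25 (ENSG00000121060.17, chromosome 17, 56836387 to 56914080) stood at 12.6 FPKM untreated and 13.1 FPKM with DAC in HCC1937, a ratio of 1.04 (0.983 to 1.10), and its log2 difference of 0.05 became -0.09 and -0.24 under the 2 scalings. The THP-1 levels were 32.0 FPKM untreated and 30.6 FPKM with DAC, a ratio of 0.954 (0.905 to 1.005). Both intervals include 1 as deposited, while under median-of-ratios scaling they were 0.888 to 0.998 in HCC1937 and 0.860 to 0.955 in THP-1, below 1. TBK1 (ENSG00000183735.9, chromosome 12, 64451880 to 64502108), the kinase that activates IRF3, stood at 2.92 FPKM untreated and 4.48 FPKM with DAC in HCC1937, a ratio of 1.53 (1.32 to 1.81). TBK1 in THP-1 was at 12.5 FPKM untreated and 13.1 FPKM with DAC, a ratio of 1.05 (0.938 to 1.17), and its log2 difference of 0.06 became -0.01 under median-of-ratios and 0.01 under upper-quartile scaling. The HCC1937 log2 difference of 0.48 became 0.37 and 0.24. As deposited, the HCC1937 interval lies wholly above that of THP-1, and under upper-quartile scaling they overlap, at 1.06 to 1.46 and 0.903 to 1.12. In GENCODE 29, 14.7% of the exon bases of TBK1, 8.80% of those of TRIM25 and 4.05% of those of EIF2AK2 are shared with exons of other genes, mostly on the opposite strand, and whether counting used strand is not given in the sources used here. The other 7 members share none.

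The order of the members by level differed between the lines, a rough comparison only, since gene lengths behind the THP-1 columns appear to be other ones. In untreated HCC1937 the order was ADAR, MAVS, TRIM25, DHX58, DDX58, IFIH1, EIF2AK2, TBK1, TLR3 and ZBP1, and counting intervals of neighbours overlapped for TRIM25 with DHX58 and DHX58 with DDX58. With DAC, DDX58 and IFIH1 moved up behind MAVS, and the intervals of MAVS, DDX58, IFIH1 and TRIM25 each overlapped the next. In untreated THP-1 the order was ADAR, TRIM25, TBK1, MAVS, EIF2AK2, IFIH1, DHX58, DDX58, TLR3 and ZBP1, and it was the same with DAC, where the intervals of MAVS and EIF2AK2 overlapped. The intervals of TLR3 and ZBP1 overlapped in both THP-1 libraries and in HCC1937 with DAC. THP-1 thus had the 3 cytosolic sensors below TRIM25, TBK1 and MAVS, whereas in HCC1937 TBK1 was below all 3 sensors.

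A test over both lines called no member. limma was fitted to all 9798 genes kept in both lines, with line as a block, so that its error is how far the 2 responses lie apart, with 1 residual degree of freedom before moderation. At a Benjamini-Hochberg adjusted p under 0.05 it called 0 genes (0%), and 625 (6.38%) had an unadjusted p under 0.05. EIF2AK2 had a mean log2 difference of 0.57 (SE 0.17), with an unadjusted limma p of 0.017 and an adjusted p of 0.64. IFIH1 had 0.54 (SE 0.18), with an unadjusted limma p of 0.028 and an adjusted p of 0.64, and ADAR 0.41 (SE 0.17), with an unadjusted limma p of 0.0505 and the same adjusted p. All 3 were higher in both pairs, but none passed the correction. The 95% interval of the fit ran from -0.44 to 0.55 for DHX58, from -0.38 to 0.42 for MAVS and from -0.39 to 0.38 for TRIM25, so changes of up to about these sizes are not excluded for them.

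**Figure D3:**
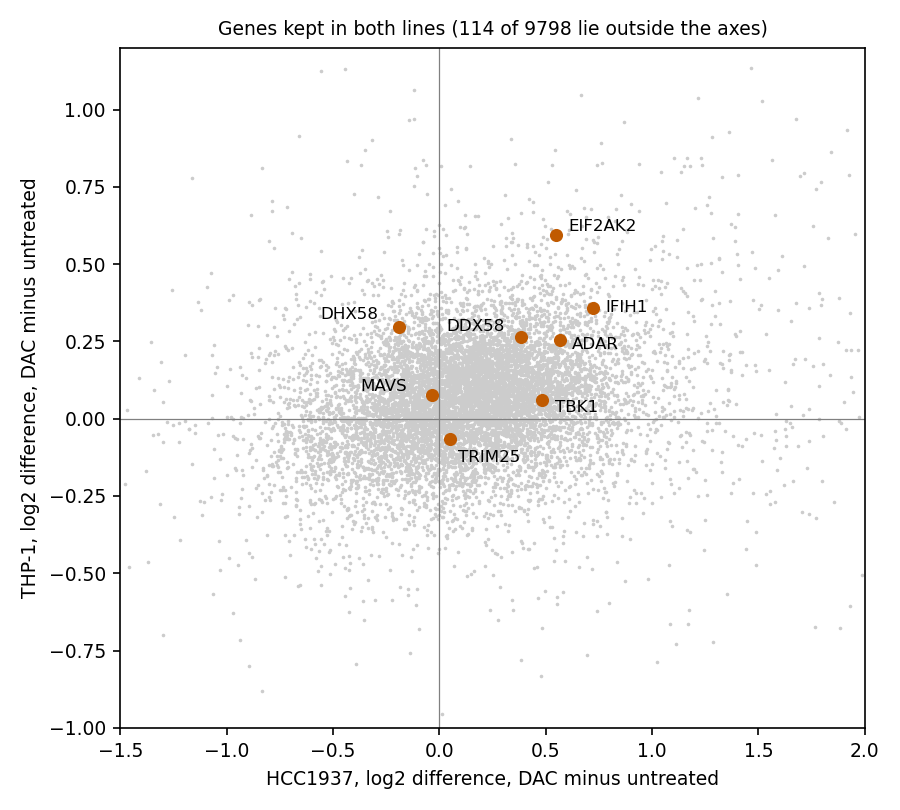
Log2 difference (DAC minus untreated, on log2(FPKM + 1)) in HCC1937 on the horizontal and in THP-1 on the vertical axis for the genes kept in both lines, grey, with the 8 kept members in orange; 114 of 9798 genes lie outside the axes. IFIH1 (0.72 and 0.36) and EIF2AK2 (0.55 and 0.60) lie farthest to the upper right among the members, and DHX58 lies left of 0 in HCC1937.

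The wider pathway was followed through 9 lists of 142 genes in all, some in more than 1 list. They were written from general knowledge, but with earlier results of these data known, so their counts and medians are descriptions only. In HCC1937, 121 were kept, of which 11 were at least 2-fold higher and 0 lower (median log2 difference 0.21), and in THP-1 0 of 114 kept were past 2-fold (median 0.12). Under median-of-ratios scaling the HCC1937 counts were 10 higher and 1 lower, and under upper-quartile scaling 8 higher and 2 lower. As deposited, the pooled shares lie near the 10.3% and 1.14% of all kept genes that were higher in the 2 lines. Shares of all kept genes past 2-fold under the scalings were not taken. Single lists in HCC1937 varied, from 0 of 12 higher for TLR3 and ZBP1 partners to 5 of 15 for early interferon targets.

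Among the adaptors, kinases, ligases and effectors around the RIG-I-like receptors, 3 of 38 were past 2-fold higher and 0 lower in HCC1937 (median 0.22), against 2 higher and 1 lower under median-of-ratios and 1 and 1 under upper-quartile scaling. IRF7, a factor that amplifies interferon production, stood at 0.12 FPKM untreated and 17.3 FPKM with DAC. USP18, which removes ISG15 from proteins and damps interferon signalling, stood at 6.16 and 15.4 FPKM. ISG15, the ubiquitin-like modifier, stood at 212 and 440 FPKM (log2 difference 1.05, and 0.90 and 0.74 when rescaled). In THP-1, 0 of 36 were past 2-fold (median 0.14), and ISG15 was the farthest, at 12.8 and 19.8 FPKM.

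The partners of TLR3 and ZBP1 had 0 of 12 past 2-fold in HCC1937 (median 0.24) and 0 of 14 in THP-1 (median 0.08). HSP90B1, the endoplasmic reticulum chaperone of Toll-like receptors, was the farthest in HCC1937, at 247 FPKM untreated and 143 FPKM with DAC (log2 difference -0.78, and -1.09 under upper-quartile scaling, where it passes 2-fold). RIPK3 was the farthest in THP-1. PKR partners and its arm of translational control had 0 of 12 past 2-fold in either line (medians 0.03 and -0.02). As deposited, EIF2S1, the subunit that PKR phosphorylates, was the farthest in HCC1937, at 17.3 and 22.7 FPKM (log2 difference 0.37), and DNAJC3, an inhibitor of PKR, in THP-1, at 7.09 and 8.64 FPKM. When rescaled, other genes, named after their values were seen, were farther and lower, NPM1 in HCC1937 (-0.46 and -0.62) and EIF2AK1 in THP-1 (-0.23 and -0.21).

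Editing enzymes and other proteins that bind double-stranded RNA had 1 of 14 higher in HCC1937 (median 0.14) and 0 of 14 past 2-fold in THP-1 (median 0.05). The higher gene was ADAD2, a testis relative of ADAR, with 0 FPKM before and 1.57 FPKM after DAC. In THP-1 the farthest as deposited was DGCR8, a partner of the microRNA-processing enzyme DROSHA, at 14.4 and 18.2 FPKM. Helicases and nucleases that remove double-stranded RNA had 0 of 9 past 2-fold in each line (medians 0.14 and 0.16). As deposited, SUPV3L1, a mitochondrial RNA helicase, was the farthest in HCC1937, at 4.15 and 6.10 FPKM (SKIV2L when rescaled, at -0.35 and -0.51, named after its values were seen), and TTC37, a subunit of the cytosolic Ski complex, in THP-1, at 5.83 and 7.37 FPKM.

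The OAS family, which makes the messenger that activates RNase L, had 2 of 7 higher in HCC1937 (median 0.38), OAS3 (11.9 and 40.2 FPKM) and OAS2 (2.88 and 8.34 FPKM), and 0 of 7 past 2-fold on log2(FPKM + 1) in THP-1 (median 0.42). OAS3, at 5.79 and 12.3 FPKM there, and OAS1, at 4.08 and 8.87 FPKM and named after its values were seen, have plain ratios of 2.13 and 2.17, and both pass with a pseudocount of 0.1. OASL, also named after its values were seen, was lower in HCC1937, at 62.06 and 42.25 FPKM, a ratio of 0.681 (0.651 to 0.717). In THP-1 OASL stood at 0.99 and 1.66 FPKM. The DNA sensing arm that shares TBK1 had 1 of 7 higher in HCC1937 (median 0.42), IFI16, a nuclear DNA sensor, at 0.98 and 3.86 FPKM, and 0 of 7 past 2-fold in THP-1 (median 0.02), where IFI16 stood at 5.04 and 7.05 FPKM. Of the 10 genes listed for this arm, 8 had a value in THP-1, and CGAS and STING1 did not. The medians of the lines therefore rest on different genes, and the THP-1 one says nothing of CGAS and STING1.

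Interferons, their receptors and their signal transducers had 0 of 13 past 2-fold in HCC1937 (median 0.01) and 0 of 10 in THP-1 (median 0.09). IRF9, a DNA-binding factor of the interferon response, was the farthest in THP-1, at 7.62 FPKM untreated and 13.2 FPKM with DAC. The ligands were picked out after their values were seen. IFNA1, IFNA2 and IFNW1 were listed at 0 in all 4 libraries, and IFNB1 at 0 in both HCC1937 libraries and at 0.12 FPKM untreated and 0 FPKM with DAC in THP-1. In HCC1937, IFNE stood at 0.11 FPKM in both libraries, and IFNK at 0 FPKM untreated and 0.19 FPKM with DAC, on about 4 reads. Both were at 0 in THP-1. The lambda interferon IFNL1 was present in HCC1937 before and after treatment, at 4.28 and 4.55 FPKM (ratio interval 0.752 to 1.49), and at 0 in THP-1. IFNL2 and IFNL3, whose near-identical copies make the split of reads uncertain, stood between 0.73 and 1.59 FPKM in HCC1937.

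Of early targets of IRF3 and interferon, 5 of 15 were past 2-fold higher in HCC1937 and none lower (median 0.63), against 4 and 3 higher under the 2 scalings, and 0 of 11 past 2-fold in THP-1 (median 0.54). The highest differences in HCC1937 were those of the chemokines CCL5 (19.6 and 70.1 FPKM) and CXCL11 (0.12 and 1.89 FPKM) and of the antiviral proteins RSAD2 (0.88 and 3.56 FPKM) and MX1 (5.28 and 14.2 FPKM). In THP-1 IFI44 was the farthest, at 0.33 and 1.24 FPKM. This list had the highest median of the 9 in each line as deposited and under both scalings, but the OAS list was above it with a pseudocount of 10 (0.24 against 0.22 in HCC1937, 0.13 against 0.11 in THP-1) and at 5 FPKM or more (0.87 against 0.73, and 0.45 against 0.38).

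**Figure D4:**
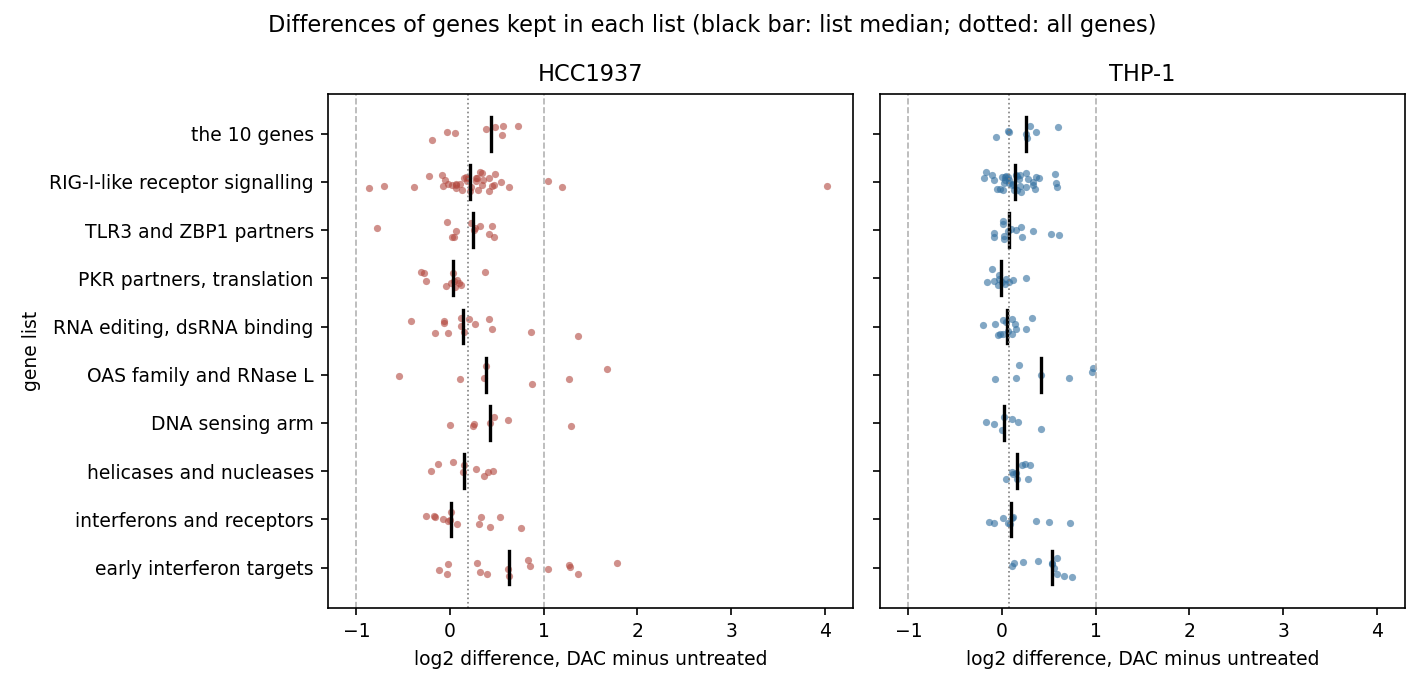
Log2 difference (DAC minus untreated) of each kept gene, by list, in HCC1937 (left) and THP-1 (right), with the 8 kept members in the top row, black bars for list medians, a dotted line for the median of all kept genes (0.19 and 0.07) and dashed lines at 2-fold. The early interferon targets have the highest medians, 0.63 and 0.54, and IRF7 is the point near 4 in HCC1937.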

How the data were processed

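The submitters' processing notes name STAR, HTSeq, cutadapt and FastQC and the build hg38; versions, annotation and strand use are not given in the sources used here. The deposited table, made by the authors, states no unit, and FPKM was inferred for the deposited values, since for genes with 50 to 250 bp of exon (GENCODE 29) value times length fell on whole multiples of a step, within 0.1, in 91.7% to 94.2% of genes with fewer than 20 reads. Of 60612 lines, 37039 are without a THP-1 value. Lines of 76 repeated symbols (1079) were left out.

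Reads were estimated from FPKM, the step and exon length (HCC1937) or the longest transcript (THP-1), divided by the excess of implied over counted reads (0.983 to 0.987 in HCC1937, 1.22 to 1.23 in THP-1). They are approximate and serve for intervals only. Alternatives tried were median-of-ratios (genes of at least 1 FPKM in both libraries) and upper-quartile scaling, pseudocounts of 0.1 and 10, other filters, 1.5-fold and 3-fold marks, and limma without line block or trend, at 0.1, rescaled, with another pseudocount or filter. An interval wholly beyond 2-fold and rescaled intervals were added after seeing the data. The size rule and limma were also run on simulated data in which a gene changed by the same fold in both lines. The real lines differ in dose and time, so that run does not show how limma performs here, and its outcome is not given. Named list genes are up to 4 per list and line past 2-fold with the largest difference, otherwise the largest; 1 gene this rule names is not reported here. The members and lists were chosen with earlier results of these data known. Tools were R 4.3.3 with limma 3.58.1, and scipy 1.17.1, numpy 2.4.6 and pandas 2.3.3 under Python 3.11.15.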

Additional observations from a re-analysis of the deposited data

Results flagged for a closer look

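Of the members, 4 had log2 differences of opposite sign in the lines, which is what set them apart; with 1 library per group the difference between lines was not tested. DHX58 had -0.19 in HCC1937 and 0.30 in THP-1, and kept these signs under both scalings. TLR3 had -0.27 and 0.07, below 1 FPKM throughout. MAVS had -0.04 and 0.08, and TRIM25 had 0.05 and -0.07, which for TRIM25 in HCC1937 turned negative under both scalings; the counting intervals of MAVS and TRIM25 include 1 in each line as deposited, and not under the scalings for MAVS in HCC1937 and TRIM25 in both lines.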

How the results depend on the processing

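The count of members past 2-fold was 0 in both lines under each scaling, pseudocount and filter, at 3-fold and with intervals wholly beyond 2-fold, and 1 in each line at 1.5-fold. The members' HCC1937 median of 0.43 was 0.31 under median-of-ratios scaling, 0.17 under upper-quartile scaling and 0.20 with a pseudocount of 10, and the THP-1 median was 0.066 with a pseudocount of 10. The pathway lists had 4 HCC1937 genes past 2-fold with a pseudocount of 10, 7 at 5 FPKM or more, 23 at 1.5-fold and 3 at 3-fold, and a median of -0.054 under upper-quartile scaling; THP-1 had 5 with a pseudocount of 0.1 and 9 at 1.5-fold. A higher pseudocount shrinks and a lower one widens differences by construction, and the cause of the other shifts was not tested.

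limma called 0 members under all its alternatives, 0 without the replicate block too, where 27 genes had an unadjusted p under 0.05. Over all genes it called 9 under upper-quartile scaling, 2 at an adjusted p under 0.1 and 2 at 5 FPKM or more. Over these alternatives the adjusted limma p ranged from 0.64 to 1.00 for EIF2AK2 and IFIH1. Each line is a pair of its own, and leaving out 1 line leaves limma no residual degree of freedom, so no left-out fit was run.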

Other observations

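Genes whose pair of differences lay nearest to a member's were looked up among 5607 protein-coding genes that reached 5 FPKM in 1 or both libraries of each line, by the distance over the 2 log2 differences. This likeness rests on 2 numbers per gene and carries no test. Nearest to IFIH1 were NT5DC2 (28.4 and 46.7 FPKM in HCC1937, 57.4 and 73.1 FPKM in THP-1, untreated and with DAC), RRM2B, a p53-induced subunit of ribonucleotide reductase (3.63 and 6.70 FPKM, and 5.99 and 7.80 FPKM), and MGME1, a mitochondrial nuclease (12.3 and 20.4 FPKM, and 7.10 and 9.32 FPKM). Nearest to ADAR were AK1, SYAP1 and CRLF3, at distances of 0.01 to 0.02, with 90 genes within 0.1. Nearest to EIF2AK2 were SERTAD1, HMCES and NLRC5, the transactivator of MHC class I genes (4.27 and 6.34 FPKM in HCC1937, 12.6 and 19.2 FPKM in THP-1), with only 5 genes within 0.1.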
